A study of Mus musculus with 8 samples.

Results

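The libraries described here are those of 4T1 cells that carried a hairpin against ERK5 and those of 4T1 cells that carried a control hairpin. They were chosen by title: 3 libraries titled shERK5-1 (shERK5) and 3 titled shCTRL, which makes 6 of the 8 libraries of the series. The other 2, titled shMEK5-2 (shMEK5), carried a hairpin against MEK5. They are used only for the filter on low values, the estimate of the spread and values set side by side. 4T1 is a mouse mammary carcinoma line that metastasises in its host strain. The cells of every library, controls included, had been infected with a lentivirus that encoded a short hairpin RNA, grown in serum and selected with puromycin. The shCTRL hairpin was non-targeting. Since 1 hairpin per target was sequenced, effects of loss of Mapk7 and effects of that hairpin on other transcripts cannot be told apart.

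ERK5, the product of Mapk7, is a mitogen-activated protein kinase that MEK5, the product of Map2k5, phosphorylates in response to growth factors and to osmotic, oxidative and mechanical stress. It differs from ERK1 and ERK2 by a long carboxy-terminal tail that enters the nucleus and activates transcription, and MEF2 factors are among its known substrates. In epithelial tumour cells the pathway has been studied for its part in proliferation and in the epithelial-mesenchymal transition, in which cells lose junctions and gain motility.

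The 6 libraries held 42749674 to 53714288 reads assigned to genes. Values are CPM, counts per 1000000 reads assigned to genes, so that a sum of all genes is the same in each library and a level is a share of the RNA counted. Of 24454 genes listed, the 11623 with at least 1 CPM in at least 2 of the 8 libraries were tested and 12831 were not. Among those tested, 117 passed that filter through the shCTRL libraries with no shERK5 library at 1 CPM. Another 115 passed through the shERK5 libraries with no shCTRL library at 1 CPM. By this definition the 2 sets had to differ, and 105 of each were called. The shMEK5 libraries were left aside in it, so some of these genes passed through shMEK5 as well. Such genes are said below to have passed through shCTRL only or shERK5 only. A further 75 genes passed only with the shMEK5 libraries, and 15 of them were called higher and 9 lower in shERK5. Among the genes named below, Adm, Mal, Oas3 and Ppbp passed through shERK5 only in this sense. Calcrl, Ccl20, Cd109, Dok2, Egr3, Mmp10, Mmp13, Piezo2, Slc14a1 and Zfp704 passed through shCTRL only. Some of them, such as Adm, Mal, Cd109, Slc14a1 and Zfp704, had at least 1 CPM in each shMEK5 library as well. Log2 fold changes are differences of log2(CPM + 1), shERK5 minus shCTRL, a scale on which changes of weakly expressed genes come out too small. A gene was called higher or lower at a limma adjusted p under 0.05. Whether replicates were separate cultures is not stated in the labels, so the p-values reflect only how far these libraries differ from one another, and that spread may be technical.

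All 6 epithelial markers were detected in each of the 6 libraries, at unlike levels. Krt18, a simple keratin, lay at 753 CPM or more, Krt8 at 372.8 CPM or more, and Krt19 and Cdh1 at 36.8 CPM or more. Epcam lay at 11.58 CPM or more and Cldn7 between 0.854 and 1.22 CPM. Of the 6 markers 3 were called higher and 2 lower in shERK5. Such markers do not identify the line, which is known from the labels. The summed level of 5 endothelial markers was at most 0.180 CPM in any of them, with Cdh5, Kdr and Emcn at 0. T cell, B cell, neutrophil and adipocyte markers each summed to at most 0.149 CPM. The 6 macrophage markers, with Adgre1 at 0, summed to between 10.1 and 10.7 CPM in shCTRL and between 13.8 and 17.6 CPM in shERK5. Nearly all of this was Cd14 (means of 7.37 and 12.5 CPM) and Cd68 (2.99 and 3.25 CPM). Csf1r, Lyz2 and Itgam were at most 0.0675 CPM in any library. The 7 fibroblast markers, with Dcn and Lum at 0, summed to between 31.6 and 47.4 CPM and between 22.9 and 28.2 CPM. Nearly all of this was Pdgfra (means of 36.8 and 25.8 CPM), and Col1a1, Col1a2, Col3a1 and Pdgfrb were at most 0.653 CPM. The part of these cell types in the results was not tested.

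Mapk7 (Entrez Gene 23939; GRCm38, chromosome 11, 61488812 to 61494267) stood at 25.6, 28.6 and 26.1 CPM in the shCTRL libraries and at 6.59, 6.33 and 6.66 CPM in the shERK5 libraries. Every knockdown library lay below every control, at 24.4% of the control mean. Its kinase Map2k5 was at 35.2, 37.0 and 36.8 CPM against 36.1, 36.8 and 37.1 CPM, and the groups overlapped. Of the kinases above MEK5, neither Map3k2 (-0.21, SE 0.11, adjusted p = 0.117) nor Map3k3 (0.11, SE 0.05, adjusted p = 0.0764) passed the test, though without shERK5 replicate 1 both did (limma adjusted p = 0.00271 and 0.0193).

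In a list of the MEK5-ERK5 module with its scaffolds, substrates and reported target genes, 2 of 28 tested members rose and 10 fell, and the list's median was -0.10. Over all 11623 tested genes, 32.0% rose and 31.3% fell. The MEF2 factor genes Mef2a (-0.22, SE 0.11, adjusted p = 0.116) and Mef2d (0.01, SE 0.08, adjusted p = 0.897) did not pass the test, but without shCTRL replicate 2 Mef2a did (-0.33, limma adjusted p = 0.0150). The MEF2 motif, taken as CTA and TAG with any 4 bases between them and searched on both strands in the 250 bases before the start, was present, before any of a gene's RefSeq transcript starts, for 3.10% of the 9246 tested genes with a window in RefSeq (GRCm38.p6) and for 1 of 21 members of this list (4.76%). Of 12 tested genes reported as ERK5 targets, 6 fell and 1 rose. Klf4, a zinc finger factor gene induced through MEF2 in other cells, was at 14.2, 14.4 and 14.6 CPM in shCTRL and 9.70, 7.74 and 8.70 CPM in shERK5. Ccnd1, cyclin D1 of the G1 phase, fell from 1759 ± 64.2 to 1328 ± 32.1 CPM (SD, n = 3 each), and the serum-inducible kinase gene Sgk1 from 80.4 ± 1.01 to 59.3 ± 1.35 CPM. Klf10, a TGF-beta-inducible factor gene, moved the other way, from 82.7 ± 2.62 to 155 ± 7.48 CPM.

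**Figure D1:**
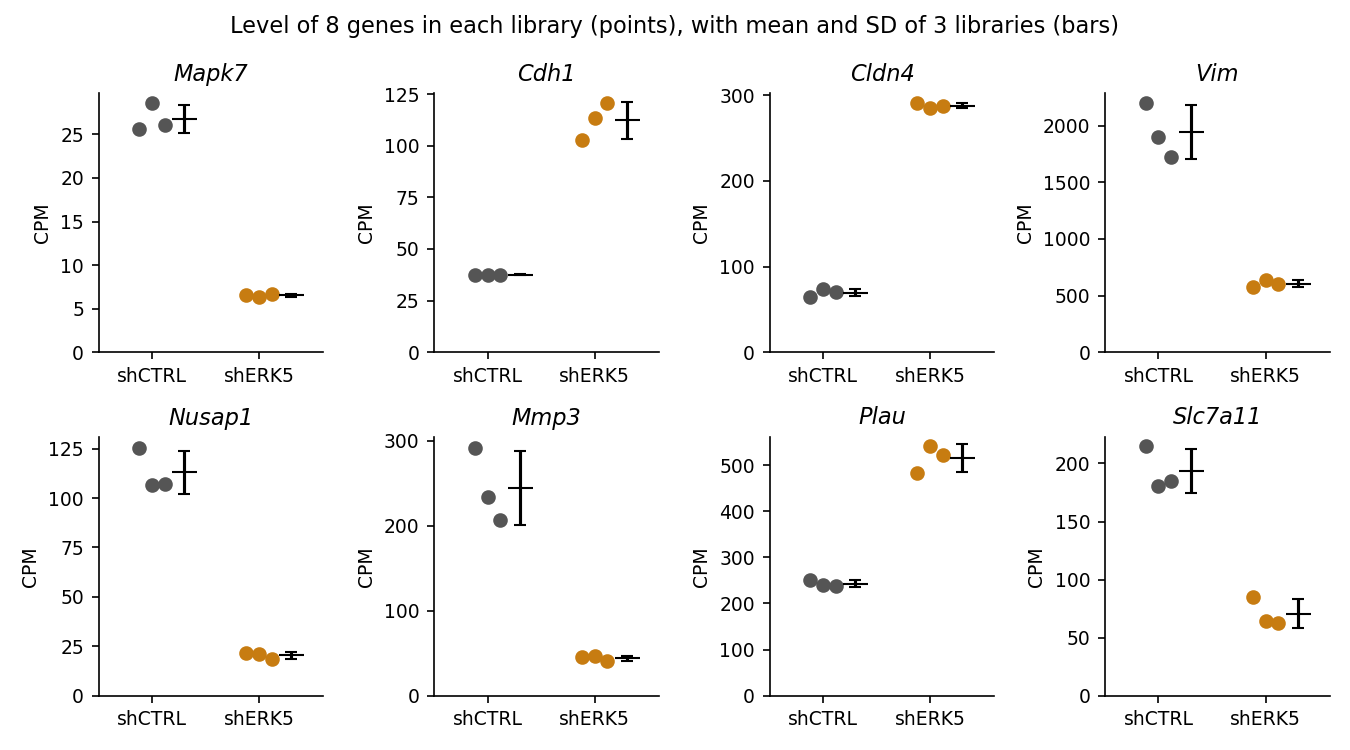
Level of 8 genes in CPM (vertical axes, each from 0) in the 3 shCTRL and 3 shERK5 libraries; each point is a library, and the bar beside the points is the mean with its SD. In each panel the 3 knockdown libraries lie apart from the 3 controls: Mapk7, Vim, Nusap1, Mmp3 and Slc7a11 are lower and Cdh1, Cldn4 and Plau higher.

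Across the transcriptome, changes in shERK5 were many and mostly small. Of the 11623 tested genes 7360 (63.3%) were called, 3723 of them higher and 3637 lower. The median size of a call was 0.36 on the log2 scale upwards and -0.40 downwards. A change of at least 2-fold was called upwards in 158 genes (1.36%) and downwards in 261 (2.25%), and one of at least 4-fold in 5 and 29. The 3 shERK5 libraries all lay above the 3 shCTRL libraries for 34.8% of the tested genes and all below them for 33.1%, which makes 67.9% without overlap. Because so many genes pass the test, a call by itself says little, and the size of a change and the share of a list that moves are given throughout.

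The greatest rise was that of Gadd45b, which with Gadd45g encodes small stress-inducible proteins that act in growth arrest. Gadd45b lay at 21.2, 31.7 and 35.6 CPM in shCTRL and at 219, 182 and 234 CPM in shERK5. Gadd45g went from 9.28 ± 2.56 to 43.4 ± 2.93 CPM (SD, n = 3 each). The third member of that family, Gadd45a, was at 97.8 ± 1.86 and 106 ± 5.26 CPM and did not pass the test (0.12, adjusted p = 0.0532), though it did without shERK5 replicate 3 (limma adjusted p = 0.0296). Other large rises were those of Tmem179, a membrane protein gene (2.34), the synaptic scaffold gene Dlgap1 (1.94), the DNA-binding factor gene Arid3a (1.93), the matricellular protein gene Ccn1 (1.81), Dennd2d (1.76), the cytokine gene Il24 (1.71), the membrane-anchored semaphorin gene Sema7a (1.67) and the adhesion molecule gene Mcam (1.66). Their standard errors ran from 0.07 to 0.14.

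The greatest falls reached genes near silence. The urea transporter gene Slc14a1 stood at 17.9, 18.8 and 18.6 CPM in shCTRL and at 0.652, 0.714 and 0.720 CPM in shERK5 (-3.52, SE 0.08). Adamtsl3, a secreted matrix protein gene, went from 24.6 ± 0.994 to 1.81 ± 0.323 CPM, and Fcgrt, the neonatal Fc receptor gene, from 15.1 ± 0.737 to 1.54 ± 0.191 CPM (SD, n = 3 each). Cp, which encodes the copper-binding ferroxidase ceruloplasmin, fell from 79.4 ± 7.93 to 14.3 ± 1.14 CPM. Mgat3, a glycosyltransferase gene, fell by 2.15 on the log2 scale and Rgl1, a guanine nucleotide exchange factor gene, by 2.19. With a mean below 0.5 CPM in shERK5 and above 3 CPM in shCTRL there were 5 genes: the surface protein gene Cd109, the receptor gene Calcrl, the mechanosensitive channel gene Piezo2, the adaptor gene Dok2 and the zinc finger gene Zfp704. The reverse held for 2 genes, the chemokine gene Ppbp, at 0.141 ± 0.0211 and 3.06 ± 0.330 CPM, and the membrane lipid raft protein gene Mal, at 0.4996 ± 0.103 and 3.14 ± 0.161 CPM.

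**Figure D2:**
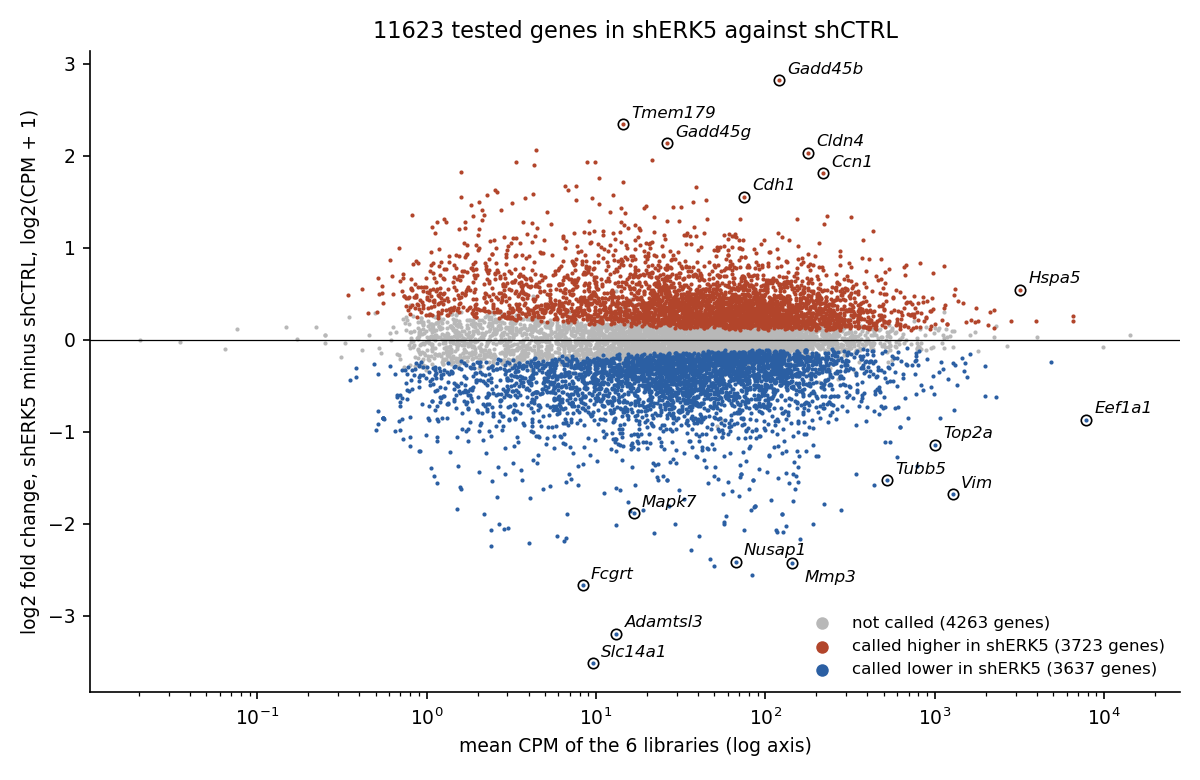
Each of the 11623 tested genes by its mean CPM over the 6 libraries (horizontal log axis) and its log2 fold change (vertical axis); red and blue points were called higher and lower in shERK5, grey points were not called, and circles mark genes named in the text. Calls lie at all levels of expression, and Slc14a1, Adamtsl3 and Fcgrt are the deepest falls.

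Weighed by reads instead of by fold, the greatest fall was that of Eef1a1, the translation elongation factor 1 alpha gene, from 10306, 10127 and 9868 CPM to 5498, 5812 and 5287 CPM. The next were those of Vim, H1f0, a linker histone gene of arrested and differentiating cells (2800 ± 167 to 1816 ± 82 CPM), and Spp1, which encodes the secreted protein osteopontin (2381 ± 227 to 1552 ± 52.8 CPM; SD, n = 3 each). The greatest rise in CPM was that of Hspa5, the chaperone BiP of the endoplasmic reticulum, from 2472, 2598 and 2712 CPM to 3645, 3824 and 3887 CPM. Lgals1, galectin-1, followed at 5911 ± 262 and 7096 ± 342 CPM. Eef1a1 has many processed copies in the genome, so its value is uncertain: the sources used here do not say how reads that match several copies were treated.

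Genes of tight junctions and polarity were called higher more often than those of adherens junctions and desmosomes, a difference that was not tested. Of 36 tested members of the epithelial junction list 18 rose and 3 fell. In the tight junction subgroup 8 of 13 rose and 0 fell, with a median of 0.49 there and of 0.00 over all tested genes, and 1 of the 8 passed the filter through shERK5 only. Adherens junction genes rose in 3 of 9 and fell in 1 (median -0.08) and desmosome genes rose in 2 of 6 and fell in 1 (median -0.04), beside 32.0% higher over all genes. Without shCTRL replicate 3 or without shERK5 replicate 3 the junction list had 1 fall, and without shERK5 replicate 1 the tight junction subgroup had 1. Cldn4, claudin-4, stood at 65.0, 73.4 and 70.1 CPM in shCTRL and at 291, 285 and 287 CPM in shERK5. Cdh1, E-cadherin of the adherens junction, stood at 37.6, 37.2 and 37.5 CPM against 103, 113 and 121 CPM. In neither gene did the groups approach each other. Cgn, the junction scaffold cingulin, rose as well (35.8 ± 3.29 to 72.7 ± 2.38 CPM; SD, n = 3 each).

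Of 8 polarity genes 5 rose and 1 fell. Crb3, an apical membrane determinant, lay at 4.38, 5.52 and 5.17 CPM in shCTRL and at 16.6, 14.01 and 16.6 CPM in shERK5. Prkci, an atypical protein kinase C gene of the apical complex, rose by 0.88 (SE 0.05) and its partner Pard6b by 0.61 (SE 0.05). Not all junction genes moved: the catenin genes Ctnna1 (-0.13, adjusted p = 0.0584) and Ctnnb1 (-0.08, adjusted p = 0.120) did not pass the test, although without shERK5 replicate 2 Ctnna1 did (limma adjusted p = 0.0301), and the desmosomal protein gene Ppl fell by 0.66.

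In a list of epithelial regulators 11 of 17 tested members rose and 1 fell. Its transcription factors rose in 6 of 9, 1 of which passed the filter through shERK5 only, its splicing regulators in 2 of 3 and its surface proteases and inhibitors in 3 of 5. The fall was that of Spint1, a protease inhibitor gene, at -0.14 (SE 0.05), a call that was lost without shCTRL replicate 1, shCTRL replicate 2, shERK5 replicate 1 or shERK5 replicate 3 (limma adjusted p from 0.0512 to 0.0669). Tfap2c, a luminal transcription factor gene, was at 1.58, 1.47 and 1.27 CPM in shCTRL and at 4.43, 4.21 and 4.21 CPM in shERK5. Grhl1 of the grainyhead family rose by 0.91 (SE 0.08), the splicing regulator gene Rbm47 by 0.70 (SE 0.09) and the membrane protease gene St14, matriptase, by 0.97 (SE 0.05). Esr1, the oestrogen receptor gene among the luminal markers, was at 4.87 ± 0.588 and 13.3 ± 0.504 CPM (SD, n = 3 each). Elf5 and Pgr, also luminal markers, were at 0 in all 6 libraries. The luminal markers did not move together. Of the 8, 6 were tested, of which 3 rose and 2, Krt8 and Krt18, fell, and 1 of the rises passed the filter through shERK5 only. Their summed level lay between 1603 and 1788 CPM in shCTRL and between 1249 and 1288 CPM in shERK5.

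Keratins split. Krt7 and Krt19 rose, the latter from 37.2 ± 0.661 to 76.7 ± 0.521 CPM, while the far more abundant Krt8 and Krt18 fell, Krt8 from 549 ± 29.8 to 383 ± 9.24 CPM (SD, n = 3 each). Vim, vimentin of mesenchymal intermediate filaments, fell from 2203, 1904 and 1724 CPM to 574, 634 and 605 CPM. Lmna, lamin A of the nuclear envelope, fell by 0.59 (SE 0.07).

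Among transcription factors of the epithelial-mesenchymal transition, 5 of 14 tested rose (35.7%) and 7 fell (50%), beside 32.0% and 31.3% of all tested genes. Tcf3 (-0.70, SE 0.08), Foxc2 (-0.76, SE 0.15) and Sox4 (-0.71, SE 0.07) were lower, and Id2, an inhibitor of basic helix-loop-helix factors, was higher (0.77). In the subgroup of classical repressors 2 of 4 tested rose and 1 fell. Snai3, a lesser-known member of the snail family, was at 0.865, 1.31 and 1.14 CPM in shCTRL and at 7.97, 7.06 and 8.28 CPM in shERK5. The fall was that of Zeb2 (-0.36, SE 0.10). Twist1 had a log2 fold change of 0.08 (adjusted p = 0.31), and Snai1 was called at 0.29 (adjusted p = 0.0421) but no longer when shCTRL replicate 1, shCTRL replicate 3 or shERK5 replicate 3 was left out (limma adjusted p from 0.0568 to 0.169).

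Repressors of the snail and ZEB families bind the E-box CACCTG in epithelial promoters, so that motif was searched on both strands in the 250 bases before the start of each gene with a window in RefSeq (GRCm38.p6; 9246 of the tested genes). It was present for 17.7% of all tested genes, for 29.8% of those called at least 2-fold higher, for 13.2% of those called at least 2-fold lower and for 13 of the 24 epithelial junction genes with a window (54.2%). A match is a description of letters and not evidence of binding. The stretches below, clear of GENCODE exons, are those of the 3 risen junction genes with the smallest adjusted p among members with the motif, with the E-box or its reverse complement in capitals. They lie at chr5:134946935-134946990 (minus strand), chr17:57062041-57062130 (plus) and chr2:168080876-168080965 (plus), with the motif starting 14, 118 and 86 bases before the start.
Cldn4: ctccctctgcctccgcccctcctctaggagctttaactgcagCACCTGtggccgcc
Crb3: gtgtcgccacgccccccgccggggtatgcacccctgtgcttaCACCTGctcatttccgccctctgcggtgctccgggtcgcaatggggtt
Pard6b: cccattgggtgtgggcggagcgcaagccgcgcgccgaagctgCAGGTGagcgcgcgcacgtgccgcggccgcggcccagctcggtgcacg

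Matrix protein genes moved both ways, with 6 of 16 tested higher (37.5%) and 5 lower (31.2%), beside 32.0% and 31.3% of all tested genes. Lama3 and Lamb3, laminin chain genes of epithelial basement membrane, rose by 1.14 (SE 0.08) and 1.05 (SE 0.06). Thbs1, thrombospondin-1, rose by 1.11 and the basement membrane collagen genes Col4a1 and Col4a2 by 0.48 and 0.73. Tnc, tenascin-C of provisional and tumour matrix, fell from 12.4 ± 0.664 to 4.26 ± 0.379 CPM, and Col6a1, a collagen VI chain, from 13.4 ± 1.12 to 5.07 ± 0.702 CPM (SD, n = 3 each). S100a4, a calcium-binding protein gene linked to motility, fell by 0.92 (SE 0.06). Over the whole list of mesenchymal and matrix genes 6 of 20 tested rose and 9 fell, and 15 more, Cdh2 and the fibrillar collagen genes Col1a1, Col1a2 and Col3a1 among them, did not reach the filter.

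Of the 7 tested matrix metalloproteinase genes 5 fell and 2 rose, and 2 of the falls, Mmp10 and Mmp13, passed the filter through shCTRL only and so had to fall. Both neighbour Mmp3 on chromosome 9 (7272514 to 7510242). Mmp3, stromelysin-1, lay at 292, 234 and 206 CPM in shCTRL and at 45.1, 46.3 and 41.0 CPM in shERK5. Mmp10, stromelysin-2, went from 4.51 ± 0.567 to 0.684 ± 0.0531 CPM and Mmp13, collagenase-3, from 4.08 ± 0.193 to 0.750 ± 0.0517 CPM (SD, n = 3 each). Mmp9, a gelatinase gene (0.39), and Mmp14, a membrane-anchored collagenase gene (0.42), rose.

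Of 6 tested genes of the plasminogen system 4 rose and 2 fell. Plau, urokinase, was at 251, 239 and 237 CPM in shCTRL and at 482, 541 and 522 CPM in shERK5. Its receptor gene Plaur rose by 0.46 (SE 0.06), whereas Plat, the tissue-type activator gene, fell by 0.30 and Serpine2, a serine protease inhibitor gene, by 0.54. Adam8, a membrane-anchored sheddase gene, rose from 12.1 ± 0.496 to 31.9 ± 0.645 CPM (SD, n = 3 each).

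Actin and adhesion genes were mostly higher, with 18 of 34 tested up and 9 down. Tpm1, tropomyosin 1, rose from 821 ± 22.0 to 1435 ± 33.4 CPM (SD, n = 3 each), Tpm4 by 0.70 and the non-muscle myosin gene Myh9 by 0.42. The integrin subunits were more evenly divided, 4 of 12 higher (33.3%) and 6 lower (50%), beside 32.0% and 31.3% of all tested genes. Among target genes of YAP and TAZ, the co-activators held back by the Hippo pathway, Ccn1 rose from 81.8, 104 and 105 CPM to 361, 318 and 343 CPM, while its relative Ccn2 had a log2 fold change of -0.16 (adjusted p = 0.0626).

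In a list of genes that report on signalling through ERK1 and ERK2 and of kinases, 13 of 29 were lower and 4 higher. Over all tested genes 31.3% were lower and 32.0% higher. The falls were mostly among the reporting genes, since of the 10 kinase genes 2 fell and 3 rose. Of the 6 feedback inhibitor genes of the Sprouty and Spred families 4 fell and 0 rose. Spry1 stood at 8.80, 8.07 and 8.54 CPM in shCTRL and at 1.69, 2.31 and 2.52 CPM in shERK5. The phosphatase gene Dusp4 went from 168 ± 2.29 to 84.9 ± 5.51 CPM (SD, n = 3 each). Among the kinase genes Mapk3, which encodes ERK1, fell by 0.79 (SE 0.09). Immediate early genes of the Egr family fell (Egr1 -0.75, Egr2 -0.78 and Egr3 -0.99), as did the small Maf factor gene Maff (-1.38, SE 0.07), while Fosl2, an AP-1 subunit gene (0.89), and Srf, the serum response factor gene (0.79), rose. Of these Egr3 passed the filter through shCTRL only and so had to fall.

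Growth factor genes moved in both directions. Areg, the EGF receptor ligand amphiregulin, fell from 109, 113 and 108 CPM to 46.1, 43.2 and 41.0 CPM, and Erbb3, a receptor gene of the same family, rose from 10.6 ± 0.762 to 23.4 ± 0.593 CPM (SD, n = 3 each). In the TGF-beta and BMP list, 10 of 33 rose (30.3%) and 13 fell (39.4%), beside 32.0% and 31.3% of all tested genes. Of the rises 1 passed the filter through shERK5 only and had to rise, and of the other 32 genes 9 rose. The type II receptor gene Tgfbr2 rose from 88.2 ± 2.23 to 188 ± 6.75 CPM, the type I receptor gene Tgfbr1 fell by 0.63 (SE 0.08), and Fstl3, an antagonist of activin, rose by 1.29 (SE 0.07). Among the ligands Tgfb1 fell by 0.79 (SE 0.09), while Tgfb2 (0.92, SE 0.10) and Bmp7 (0.89) rose.

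Genes of mitosis fell nearly without exception. In the G2/M and spindle list 45 of 46 tested members fell and 0 rose, against 31.3% of all tested genes that fell, and the remaining one, the chromosomal passenger gene Cdca8, was at -0.10 (adjusted p = 0.0927). All 46 lay lower in every shERK5 library than in any shCTRL library, as did 33.1% of all tested genes. Their median was -0.84. Of the controls, shCTRL replicate 1 was the highest for 38 of the 46, and without it 45 still fell and the median was -0.78. Since these are bulk libraries, fewer cells in a phase and less RNA per cell cannot be told apart.

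Nusap1, a microtubule-bundling protein of the spindle, was at 126, 106 and 107 CPM in shCTRL and at 21.7, 20.9 and 18.6 CPM in shERK5, the greatest fall of the list. Tpx2, an activator of Aurora A, fell from 155 ± 10.3 to 68.5 ± 1.73 CPM. Top2a, the topoisomerase that untangles chromosomes before they part, fell from 1540, 1291 and 1299 CPM to 714, 592 and 569 CPM. The mitotic cyclin genes Ccnb1 (104 ± 3.43 to 57.1 ± 2.23 CPM) and Ccnb2 (117 ± 9.35 to 58.9 ± 2.34 CPM; SD, n = 3 each) stood at about the same ratio, and Foxm1, the transcription factor gene that drives them, fell by 0.66 (SE 0.08). Tubb5, a beta-tubulin gene outside that list, fell from 777 ± 115 to 267 ± 17.5 CPM.

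Many G2/M promoters hold a CHR element, TTTGAA, often downstream of CCAAT boxes, through which the DREAM and MuvB complexes act. TTTGAA was present, on either strand, for 12.6% of all tested genes with a window, for 25% of those called at least 2-fold lower, for 13.2% of those called at least 2-fold higher and for 15 of 39 G2/M genes (38.5%). CCAAT was present for 41.7%, 57.5%, 38.6% and 82.1%. Of all 261 genes called at least 2-fold lower, with or without a window, 13 were members of the G2/M list and 48 were replication-dependent histone genes, described below. The stretches below are those of the 4 G2/M genes with the smallest adjusted p among the members with the motif clear of GENCODE exons, with TTTGAA or its reverse complement in capitals. They lie at chr9:70421674-70421763 (minus strand), chr8:22185873-22185962 (minus), chr1:136467598-136467667 (plus) and chr11:99024190-99024254 (minus). The motif starts 167, 101, 228 and 23 bases before a RefSeq start. For Ccnb2 and Ckap2 that is the outermost start of the gene. For Kif14 it lies 1547 bases inside the gene, so that the whole stretch is within it, and for Top2a 10 bases inside, so that the stretch overlaps the gene by 10 bases.
Ccnb2: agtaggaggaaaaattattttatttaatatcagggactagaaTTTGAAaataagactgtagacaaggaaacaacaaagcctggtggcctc
Ckap2: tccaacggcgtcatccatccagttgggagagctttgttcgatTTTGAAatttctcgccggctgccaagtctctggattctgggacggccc
Kif14: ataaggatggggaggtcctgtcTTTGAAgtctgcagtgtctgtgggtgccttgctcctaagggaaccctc
Top2a: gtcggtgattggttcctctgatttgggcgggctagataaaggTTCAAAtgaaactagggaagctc

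The log2 fold changes of these genes were -0.97 (Ccnb2), -0.81 (Ckap2, a spindle protein gene), -0.94 (Kif14, a kinesin gene of cytokinesis) and -1.14 (Top2a).

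Replication-dependent histone genes, which are transcribed in S phase into RNAs without a poly(A) tail, fell further still. RNA had been depleted of ribosomal RNA and not selected by poly(A), so these RNAs could be counted. Of 60 tested, 56 fell and 0 rose, and their median was -1.54. Of the falls 1 passed the filter through shCTRL only and had to fall, and of the other 59 genes 55 fell. By family the medians were -2.002 for the 12 H3 genes, -1.79 for the 15 H2B genes, -1.54 for the 16 H2A genes, -1.37 for the 5 H1 genes and -0.90 for the 12 H4 genes. H3c2 stood at 140.0, 164 and 125 CPM in shCTRL and at 29.2, 19.4 and 22.2 CPM in shERK5. H1f5 stood at 305, 269.9 and 209.7 CPM against 57.8, 59.5 and 53.3 CPM. In both genes every shERK5 library lay below every shCTRL library. The libraries of a group moved together across these genes: shCTRL replicate 2 was the highest control for 58 of the 60 and shERK5 replicate 2 the lowest knockdown for 55. The median was -1.41 without the former and -1.37 without the latter, with 54 falls in each case. Histone genes are near-identical copies, so single values are uncertain. Of these genes, 50 lie on chromosome 13 between 21715711 and 23764412, of which 47 fell, and 10 on chromosome 3 between 96219885 and 96270192, of which 9 fell.

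**Figure D3:**
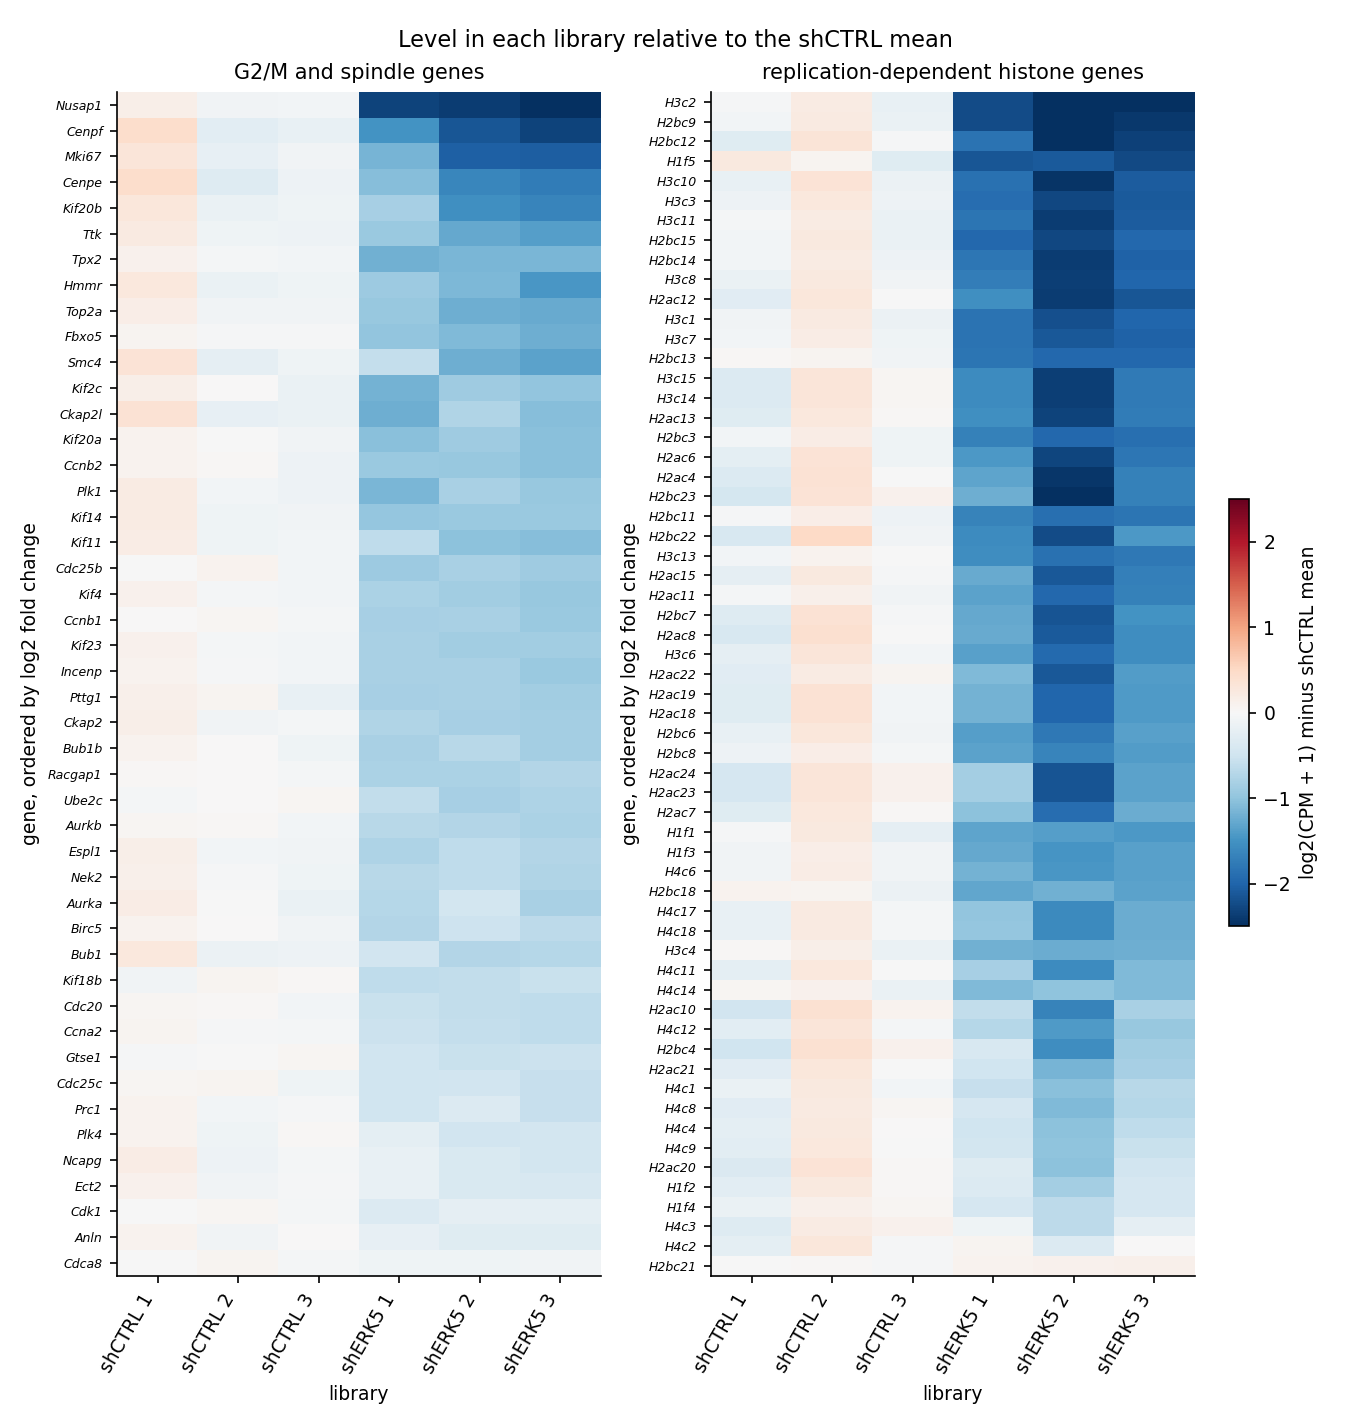
Level of each of the 46 G2/M genes (left) and 60 replication-dependent histone genes (right) in each library, as the difference of log2(CPM + 1) from the mean of the 3 shCTRL libraries (colour scale, blue lower, red higher); rows are ordered by log2 fold change. The 3 shERK5 columns are blue for nearly all rows, with Nusap1 and H3c2 at the top.

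S phase and repair genes moved less. Of 47 tested replication genes 27 fell and 8 rose (median -0.20), and without shCTRL replicate 2, shCTRL replicate 3, shERK5 replicate 2 or shERK5 replicate 3 the count of rises was 5, 5, 5 and 4. Chaf1b, a subunit of the chromatin assembly factor that loads new histones, fell from 27.4 ± 1.89 to 12.2 ± 0.461 CPM, and the helicase subunit gene Mcm7 from 185 ± 11.6 to 98.0 ± 4.17 CPM (SD, n = 3 each). Of 44 DNA repair and checkpoint genes 23 fell and 6 rose, and in the homologous recombination subgroup 9 of 12 fell and 0 rose. Rad9a, a clamp subunit of the damage checkpoint, went against them, from 94.0 ± 8.02 to 171 ± 13.3 CPM. Chromatin genes rose in 3 of 35 and fell in 19, with falls of H2az2, a histone variant gene (-0.90, SE 0.06), and Hmgb2, a DNA-bending protein gene (-0.59). The count of rises was 1 without shCTRL replicate 2, shCTRL replicate 3, shERK5 replicate 3 or shMEK5 replicate 1.

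Of 4 tested inhibitor genes of the G1 cyclin-dependent kinases 0 rose and 2 fell. Cdkn1a, which encodes p21, was at 5.59 ± 0.546 and 4.72 ± 0.677 CPM (SD, n = 3 each; -0.21, adjusted p = 0.0892; 0.0219 with limma without shERK5 replicate 2), and Cdkn1b, p27, fell by 0.31. Of 28 tested genes of the p53 response 11 rose (39.3%) and 6 fell (21.4%), beside 32.0% and 31.3% of all tested genes. Perp, a p53 target gene of desmosomes and of cell death, rose by 0.81 (SE 0.05), and Trp53inp1, another target gene, fell by 1.02 (SE 0.12).

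Immune response genes were mostly higher in shERK5. Of 52 tested interferon-stimulated genes 38 rose and 6 fell. Of the rises 4, Oas3 among them, passed the filter through shERK5 only and had to rise, and of the other 48 genes 34 rose and 6 fell. Oas3, a sensor enzyme of double-stranded RNA, stood at 0.711, 0.772 and 0.657 CPM in shCTRL and at 3.65, 3.38 and 3.62 CPM in shERK5. Ddx58, the RNA sensor RIG-I, rose from 57.0 ± 2.71 to 114 ± 6.04 CPM, and Usp18, a brake on the interferon receptor, from 0.782 ± 0.236 to 3.55 ± 0.215 CPM (SD, n = 3 each). The receptor and its kinases were among the falls, with Ifnar1 at -0.31, Ifnar2 at -0.25, Jak1 at -0.27 and Tyk2 at -0.53.

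In MHC class I presentation 15 of 25 tested genes rose and 2 fell. The second count was 1 or 0 without shCTRL replicate 1, shCTRL replicate 2, shERK5 replicate 2 or shERK5 replicate 3. The immunoproteasome subunit gene Psmb9 stood at 1.21, 1.15 and 1.23 CPM in shCTRL and at 5.03, 5.13 and 5.35 CPM in shERK5. Psmb9, Psmb8 and the peptide transporter genes Tap1 and Tap2 lie side by side on chromosome 17 (34182030 to 34216321), and their log2 fold changes ran from 1.14 to 1.49. The heavy chain genes H2-K1 and H2-D1 rose by 0.79 and 0.73, with reads that may be shared between class I copies, while the light chain gene B2m was at 607 ± 18.8 and 576 ± 9.52 CPM (SD, n = 3 each; -0.08, adjusted p = 0.133). Cd274, which encodes the checkpoint ligand PD-L1, rose from 2.44 ± 0.440 to 4.53 ± 0.397 CPM.

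Of 30 tested NF-kB and chemokine genes 22 rose and 2 fell. The adhesion molecule gene Icam1 was at 23.4, 24.8 and 23.6 CPM in shCTRL and at 53.2, 54.0 and 53.3 CPM in shERK5. Nfkbia, the inhibitor of NF-kB and one of its targets, rose from 78.0 ± 3.27 to 156 ± 6.10 CPM, and the chemokine gene Cxcl16 from 35.2 ± 2.73 to 78.7 ± 1.17 CPM (SD, n = 3 each). Both falls were chemokine genes: Ccl2, which recruits monocytes (-1.13, SE 0.12), and Ccl20 (-1.10, SE 0.09). Of these Ccl20 passed the filter through shCTRL only and so had to fall.

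The interferon response element was searched on both strands as a pair of GAAA with any 2 bases between them. It was present for 3.04% of all tested genes with a window, for 8.77% of those called at least 2-fold higher, for 3.30% of those called at least 2-fold lower, and for 13 of 41 interferon-stimulated genes (31.7%). The stretches below show 3 of the risen genes with the smallest adjusted p among the members with the motif clear of GENCODE exons, with the motif or its reverse complement in capitals. They lie at chr5:120887614-120887667, chr5:120777683-120777776 and chr12:26456521-26456614, all on the minus strand, and in the first the motif is present in 2 overlapping copies. The RefSeq start used for Oas3 lies 25 bases downstream of the gene's outermost start, and its stretch overlaps the gene by 2 bases. Oas1g (1.39) has near copies in the same cluster, and its reads may be shared with them.
Oas1g: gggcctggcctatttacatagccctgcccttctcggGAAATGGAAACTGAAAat
Oas3: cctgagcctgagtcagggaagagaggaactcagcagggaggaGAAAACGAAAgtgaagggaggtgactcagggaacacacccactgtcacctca
Rsad2: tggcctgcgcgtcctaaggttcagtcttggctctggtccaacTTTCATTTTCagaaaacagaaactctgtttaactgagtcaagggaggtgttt

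**Figure D4:**
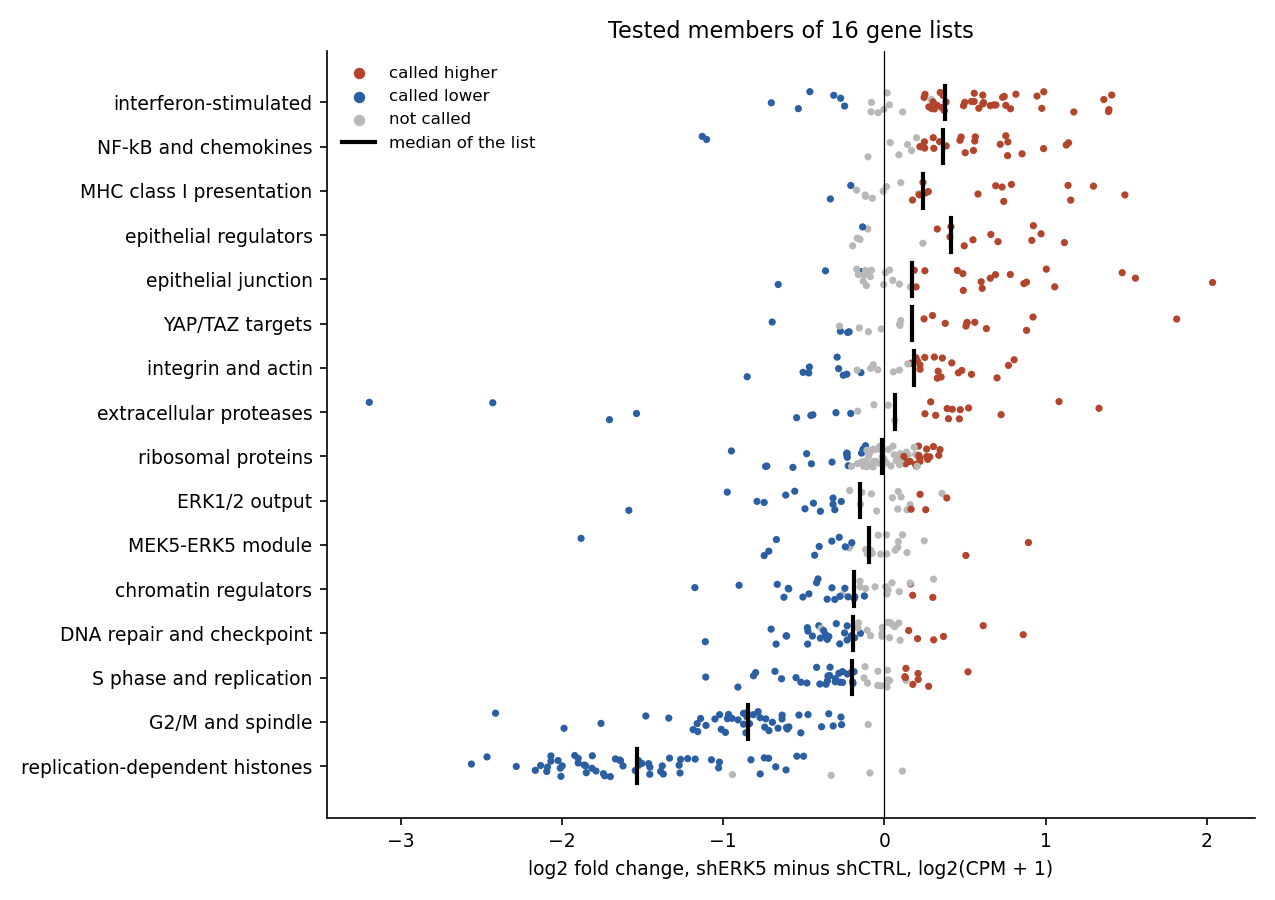
Log2 fold change (horizontal axis) of each tested member of 16 gene lists (rows); points are genes, red if called higher, blue if called lower and grey if not called, and the black bar is the median of the list. Histone and G2/M genes lie to the left, with medians of -1.54 and -0.84, and interferon, NF-kB, MHC class I and epithelial genes mostly to the right.

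Stress responses moved in opposite directions. In the unfolded protein response, which answers misfolded protein in the endoplasmic reticulum, 9 of 14 tested genes rose and 0 fell. Xbp1, its central transcription factor gene, stood at 119.9, 124 and 123 CPM in shCTRL and at 225, 233 and 242 CPM in shERK5. The endoplasmic reticulum cofactor genes Sdf2l1 (0.85, SE 0.05) and Manf (0.82, SE 0.05) rose with the chaperone gene Hspa5. Of the genes driven by ATF4, the factor of the amino acid response, 9 of 14 fell and 0 rose, and the count of rises was 2 without shERK5 replicate 1 and 1 without either shMEK5 replicate. Slc7a11, the cystine transporter gene, fell from 215, 181 and 185 CPM to 85.2, 64.6 and 62.5 CPM. Shmt2, a mitochondrial serine-to-glycine enzyme gene, fell from 512 ± 24.0 to 277 ± 5.21 CPM (SD, n = 3 each).

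Antioxidant genes under NRF2 also fell, in 8 of 14 with 1 rise. Of the falls 1 passed the filter through shCTRL only and had to fall, and of the other 13 genes 7 fell and 1 rose. Nqo1, a quinone reductase gene that is a standard readout of NRF2, stood at 40.5, 36.1 and 34.1 CPM in shCTRL and at 12.7, 13.1 and 11.7 CPM in shERK5. Nfe2l2, which encodes NRF2 itself, fell from 210 ± 8.56 to 148 ± 5.82 CPM, and the rise was that of Me1, malic enzyme (0.40). Of 9 heat shock genes 2 rose and 3 fell, with the constitutive chaperone gene Hspa8 at -1.11 (SE 0.06). Hspa8 and the abundant chaperone gene Hsp90ab1 (-0.85, SE 0.15) have processed copies, so their values are uncertain.

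**Figure D5:**
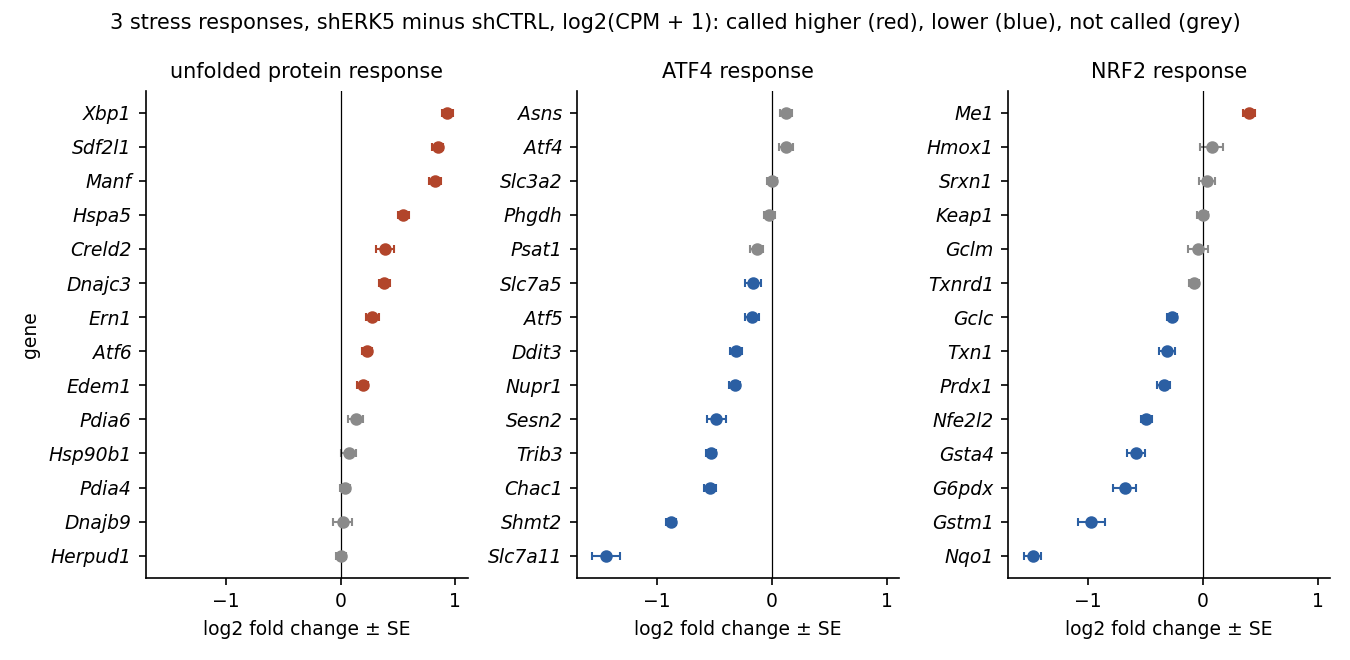
Log2 fold change with its standard error (horizontal axes) of each tested gene of 3 stress responses; red points were called higher, blue lower, grey not called. The unfolded protein response lies at or above 0, and the ATF4 and NRF2 responses mostly below it, with Slc7a11 and Nqo1 lowest.

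Genes of translation and respiration were divided. Of 75 ribosomal protein genes 18 rose (24%) and 15 fell (20%), beside 32.0% and 31.3% of all tested genes. Their median was -0.01, and the greatest change was that of Rps4x (-0.95, SE 0.05), whose reads may be shared with near copies. Ribosome biogenesis genes rose in 19 of 33 and fell in 6, with the nucleolar gene Nop56 at 0.70 and Polr1c, a subunit shared by RNA polymerases I and III, at -0.89. Of 50 nuclear genes of oxidative phosphorylation 26 rose and 9 fell, mostly by little, as the list's median of 0.14 shows. In glycolysis and the hypoxia response 16 of 34 rose and 12 fell, and of the rises Adm passed the filter through shERK5 only. Pfkfb3, a regulator of glycolytic flux, rose from 20.7 ± 1.53 to 47.8 ± 3.73 CPM and Adm, adrenomedullin, from 0.735 ± 0.0206 to 4.36 ± 0.217 CPM, while Ddit4, an inhibitor of mTORC1, fell from 47.1 ± 6.38 to 14.5 ± 1.33 CPM (SD, n = 3 each). In sterol synthesis Hsd17b7 rose by 1.21 (SE 0.06) and the feedback gene Insig1 fell by 0.90 (SE 0.07).

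Clock repressor genes rose in 5 of 8 and fell in 0. Nr1d1, the repressor REV-ERB alpha, stood at 2.21, 2.62 and 3.00 CPM in shCTRL and at 9.66, 10.3 and 11.4 CPM in shERK5. Arntl, which encodes the activator BMAL1 and is repressed by REV-ERB, fell by 0.34 (SE 0.05). Bhlhe40, a further repressor gene, rose by 1.245 (SE 0.13). Harvest times are not given in the labels, and their part was not tested. Among channel genes the water channel gene Aqp1 fell from 53.4, 40.4 and 34.3 CPM to 10.5, 12.5 and 11.02 CPM, and the potassium channel gene Kcnk1 rose from 34.6 ± 1.37 to 69.1 ± 2.21 CPM (SD, n = 3 each).

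The remaining lists had members called in both directions, to be read beside the 32.0% of all tested genes that rose and the 31.3% that fell. Immediate early and AP-1 genes rose in 5 of 24 and fell in 8, and intermediate filament genes in 4 and 5 of 11. Extracellular protease genes as a whole rose in 12 of 25 and fell in 9, growth factor and receptor genes in 8 and 11 of 25, and G1 regulators in 5 and 9 of 26. Sterol and fatty acid genes rose in 11 of 34 and fell in 9, autophagy and lysosome genes in 14 and 14 of 37, and S100 genes in 4 and 2 of 9. YAP and TAZ genes rose in 11 of 22 and fell in 4, a count of falls that was 2 without shCTRL replicate 3 or shERK5 replicate 2. The whole clock list rose in 8 of 16 and fell in 3 (5 without shERK5 replicate 1), channel and carrier genes in 5 and 10 of 18, and stress genes in 12 and 20 of 51. Of the falls 1 immediate early gene, 1 channel gene and 1 stress gene passed the filter through shCTRL only and had to fall. Bcl2 family genes, which set the threshold for cell death, rose in 5 of 12 and fell in 2. Without shERK5 replicate 3 these counts were 3 and 1, and the count of falls was also 1 without shCTRL replicate 2, shCTRL replicate 3 or shERK5 replicate 1.

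Along the genome, genes of chromosome X were more often lower: of 322 tested, 48 rose (14.9%) and 153 fell (47.5%), with a median of -0.18, the lowest of any chromosome. Falls lay all along it but were fewest at its end. With its tested genes cut in order of position into 4 blocks of 80 or 81 genes, the medians were -0.21, -0.16, -0.23 and -0.04. The shares that fell were 53.8%, 44.4%, 56.2% and 35.8%, beside 31.3% of all tested genes. Chromosome 13 had 22.3% higher and 41.5% lower, and without its 50 histone genes 25% and 35.2%. In shMEK5, which shares the control libraries, the X-linked genes had a median of -0.13. Over all 18 alternative settings the X-linked median lay between -0.20 and -0.15.

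Several of the genes above are given beside their values in shMEK5, which shares the shCTRL libraries, so the comparisons are not independent and the difference between the knockdowns was not tested here. Gadd45b (2.67 in shMEK5 and 2.83 in shERK5), Mmp3 (-2.07 and -2.43), Fcgrt (-2.27 and -2.67), Nqo1 (-1.14 and -1.49) and Nr1d1 (1.55 and 1.67) had values of like size. Cldn4 (0.17 and 2.04), Crb3 (0.07 and 1.47), Nusap1 (-0.19 and -2.41), Tpx2 (-0.08 and -1.16), Spry1 (-0.10 and -1.59) and Ppbp (0.04 and 1.83) had values near 0 in shMEK5. The small rise of Cldn4 in shMEK5 passed the test all the same (limma adjusted p = 0.0268). For Tmem179 (-0.76 and 2.34), Maff (0.57 and -1.38), Ccl2 (1.65 and -1.13), Ccl20 (1.35 and -1.10) and Tnc (0.47 and -1.36) the signs were opposite, each past the test in both comparisons.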

How the data were processed

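The 8 libraries were made from rRNA-depleted total RNA of 4T1 cells with a stranded kit, per the labels' protocols. The deposited values are CPM per gene, made by the authors. STAR and mm10 are named in the submitters' processing notes, while the counting program, the annotation and whether strand was used were not given in the sources used here. Each value times its library total gave a whole number within 0.01 of a read for 99.9866% to 100% of values. Symbols came from RefSeq GRCm38.p6 for 24374 of 24454 genes and from GENCODE for 7.

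Genes with at least 1 CPM in at least 2 libraries were fitted as log2(CPM + 1) with limma 3.58.1 (R 4.3.3), with a mean per group over all 8 libraries, moderated with trend and robust settings and adjusted by Benjamini-Hochberg. The groups come from sample titles. Replicate numbers did not pair the samples. On simulated data for this comparison with 11623 genes, limma recovered 24, 47, 49 and 50 of 50 genes changed 1.25-, 1.5-, 2- and 4-fold, with 14 false calls. Only those genes were changed there, and noise was independent between genes, whereas 63.3% of genes were called in the data. These figures therefore do not give the error rate of the calls reported here. Alternatives were other pseudocounts (0.5 and 2), no filter or a minimum of 5 CPM, RLE and TMM factors, the 6 libraries alone, a replicate block, edgeR 4.0.16 and DESeq2 1.42.0 on recovered reads, and each library left out.

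The members and the 33 lists were chosen with earlier results of these data known, and 1141 of 1143 list entries matched a gene. Named genes were drawn from the members of the MEK5-ERK5 list; from the 12 called genes with the largest log2 fold change and the 10 with the largest CPM difference in each direction, among those with a mean of at least 5 CPM, no overlap between the groups, an established symbol and reads not identical to another gene's; from up to 6 genes each way with a mean under 0.5 CPM in 1 group and at least 3 in the other; and from each list's 6 members with the smallest adjusted p and its subgroups of 8 or fewer. Not every gene so eligible is named. Ccl2, Ccn2, Cdca8, Ckap2, Col4a1, Col4a2, Col6a1, Ctnna1, Ctnnb1, Egr3, Esr1, Ifnar1, Ifnar2, Jak1, Kif14, Lama3, Me1, Mmp14, Mmp9, Nfe2l2, Ppl, Tgfb1, Tgfbr1 and Tyk2 were named outside that rule after their values were seen. Hairpin sequences were not used here.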

Additional observations from a re-analysis of the deposited data

How the results depend on the processing

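Under 18 alternative settings 0 genes were called in the direction opposite to the main result, and the median of all genes moved to at most 0.0128. The counts of higher and lower genes stayed within 1.5 times of 3723 and 3637, from 3224 to 3948 and from 3203 to 3815. Leaving out 1 library gave 3224 to 3742 higher and 3203 to 3571 lower genes. The replicate block gave 3503 and 3476. Replicate numbers did not pair the samples: the deviations of same-numbered libraries correlated at -0.065, -0.19 and 0.17. The counts of at least 2-fold changes, 158 and 261, were 298 and 401 with edgeR and 291 and 407 with DESeq2, both on recovered reads with no pseudocount of 1 CPM. Of the list counts, 58 of 1656 moved by more than 1.5 times, and 49 of 828 list medians moved. Of 171 named genes 9 lost or gained a call under some alternative. Among junction genes 5 fell with RLE factors, TMM factors or DESeq2. The rises among S phase genes were 5 and the falls among MHC class I genes 1 under the replicate block. The call of Spint1 was lost under the block (limma adjusted p = 0.053), and that of Snai1 with no filter (0.0676) and with DESeq2 (0.0652). Ctnna1 gained a call with RLE factors, TMM factors, edgeR or DESeq2 and Ccn2 with TMM factors (0.0489). A single read was worth 0.0186 to 0.0234 CPM in the 6 libraries, and a count of 0 allows up to 0.0559 to 0.0702 CPM (3 reads, for counting error only).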
